A study of Mus musculus with 17 samples.

Results

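The comparison of male cocaine with male control libraries asked where chromatin accessibility differed in nucleus accumbens neurons of mice that have no estrous cycle, 1 h after a single dose of cocaine. It rested on 5 of the 17 ATAC-seq libraries of the series, 2 of male cocaine and 3 of male control mice, taken as the libraries whose titles name neither estrous stage. All mice were C57BL/6 by their labels, C57BL/6J in the methods of the study, and 52 to 54 days old. The cocaine mice had received 10 mg/kg cocaine (i.p.), and no vehicle injection was described for the controls, so that the drug and the injection cannot be told apart. Each library pooled 3 animals, and both groups were sorted for nuclei carrying NeuN, a protein of the nuclei of most neurons. ATAC-seq uses a transposase that cuts accessible DNA, and a peak is a stretch of the genome where cuts pile up over the background.

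The nucleus accumbens is part of the ventral striatum and of the brain's reward circuit. Most of its neurons are medium spiny neurons, which release GABA and carry either the dopamine receptor Drd1 or Drd2. Cocaine blocks the reuptake of dopamine, and dopamine at Drd1 raises cAMP and induces immediate early genes such as Fos, whose products bind AP-1 sites. Glucocorticoid receptor, nuclear receptors of the NR4A family, MEF2 and CREB are other factors through which stimulation is known to reach neuronal chromatin.

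Since the libraries differed in their number of peaks, the 74532 strongest peaks on chromosomes 1 to 19 were taken from each and overlapping peaks were merged into 114831 regions. A region was counted as gained where both cocaine lists and none of the 3 control lists held a peak, and as lost where all 3 control lists and neither cocaine list did. Sequences of 6 regions that the results turn on are given first, as the summit with 100 bases either side on the forward strand of mm10. The first pair are the gained regions of best rank whose window is at most 50% soft-masked repeat and that no control library listed at any strength. They are followed by the gained region in Foxp2 whose worse rank was best, 2 lost promoters, and the region with the largest increase among those with a glucocorticoid response element (GRE). Capitals mark the motifs that were searched, here AP-1 (TGACTCA or TGAGTCA, in 9.41% of all regions), an E-box (CAGCTG, 11.5%), a CRE (TGACGTCA, 0.554%) and a GRE (0.288%).
Near Kcnd2, chr6:21200612-21200812: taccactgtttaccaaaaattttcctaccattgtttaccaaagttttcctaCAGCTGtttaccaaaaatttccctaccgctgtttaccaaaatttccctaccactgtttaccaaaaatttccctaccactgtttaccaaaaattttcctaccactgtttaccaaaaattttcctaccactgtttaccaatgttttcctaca
Intron of Ankar, chr1:72696268-72696468: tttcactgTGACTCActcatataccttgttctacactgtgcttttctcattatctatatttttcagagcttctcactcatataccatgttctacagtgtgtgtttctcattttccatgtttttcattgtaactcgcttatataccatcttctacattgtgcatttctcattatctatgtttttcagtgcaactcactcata
Intron of Foxp2, chr6:15094073-15094273: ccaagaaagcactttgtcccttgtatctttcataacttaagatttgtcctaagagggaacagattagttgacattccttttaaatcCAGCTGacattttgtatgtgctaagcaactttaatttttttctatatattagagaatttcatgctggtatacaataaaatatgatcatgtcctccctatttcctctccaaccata
Promoter of Neurod6, chr6:55681109-55681309: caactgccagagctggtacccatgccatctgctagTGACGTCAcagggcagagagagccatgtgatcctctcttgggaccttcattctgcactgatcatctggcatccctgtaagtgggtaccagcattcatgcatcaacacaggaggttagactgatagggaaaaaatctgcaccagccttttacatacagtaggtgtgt
Promoter of Creb5, chr6:53573218-53573418: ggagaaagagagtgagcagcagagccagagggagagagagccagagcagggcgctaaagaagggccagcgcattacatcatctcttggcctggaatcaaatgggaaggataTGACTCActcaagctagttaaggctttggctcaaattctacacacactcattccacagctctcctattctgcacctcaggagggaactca
Exon of 4930402H24Rik, chr2:130738095-130738295: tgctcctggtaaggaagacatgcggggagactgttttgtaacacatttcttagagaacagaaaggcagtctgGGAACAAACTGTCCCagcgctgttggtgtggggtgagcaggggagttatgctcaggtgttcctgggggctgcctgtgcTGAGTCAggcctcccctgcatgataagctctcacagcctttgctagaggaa
Both of the first pair repeat themselves. In the window near Kcnd2, 77.3% of bases equalled the base 25 positions further on, and in the window in Ankar 79.4% equalled the base 60 positions further on. In the other windows printed the best such share was at most 36.2%. Of all gained regions, 27 (0.65%) reached 70%, against 12 (0.132%) of the lost and 281 (0.245%) of all regions.

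Of the 114831 regions, 4151 (3.61%) were gained and 9083 (7.91%) were lost, while 39452 (34.4%) were called in all 5 libraries. The overlap of called regions (Jaccard index) was 0.602 between the cocaine libraries and 0.68 to 0.732 among the controls. Between the groups it was 0.507 to 0.542, so that each library was closer to those of its own group. The calls of single regions were not tested, since 2 libraries against 3 cannot give an exact permutation p below 0.1, two-sided.

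The libraries of both groups differed from the 12 female ones. The 2 cocaine libraries held fewer peaks than any other library of the series, 86626 and 74532, against 148195, 132654 and 146714 in the male controls. Their peaks were also weaker. The fold enrichment of the summit over the background at rank 1000 was 29.8 and 27.8 with cocaine and 38, 35.1 and 35.1 in the controls, whereas the background itself was 8.15 and 7.6 reads against 6.84, 6.26 and 8.11. The lowest fold enrichment that entered the lists was 2.62 and 2.21 with cocaine and 3.57, 3.44 and 3.4 in the controls. Gained and lost regions were therefore differences in rank. The male controls stood apart at promoters of cortical excitatory neurons, as described with the cell type markers. Of the gained regions, 2279 had a peak below the list in at least 1 control, and in 1551 of these the highest control fold enrichment exceeded the lower of the cocaine values. The remaining 1872 (45.1%) had no control peak of any strength. Of the lost regions, 8460 (93.1%) had no peak in either full cocaine list. The shares of 45.1 and 93.1% cannot be compared, since the lists used held 86 and 100% of the cocaine peaks. Of the control peaks they held 50.3, 56.2 and 50.8%, so that a cocaine library had little or no list left below them.

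Gained regions were AT-rich and far from protein-coding transcription start sites. Their median G+C content was 34.3%, against 45.8% in lost regions, 50.7% in regions called in all 5 libraries and 45.3% in all regions. The median distance to a protein-coding transcription start site was 74271 bp for gained and 51064 bp for lost regions, against 37913 bp for all regions. Only 97 gained (2.34%) and 184 lost regions (2.03%) lay within 1 kb of a start site, where 11.6% of all regions lay. With the regions split into 5 classes of rising G+C content, gained regions made up 81.0% of gained and lost regions together in the lowest class and 28.9, 15.4, 11.9 and 14.4% in the others. The cocaine peak lists as a whole were also lower in G+C, with a mean G+C content of 47.8 and 46.8% with cocaine and 49.9, 48.6 and 49.3% in the controls (exact permutation test, two-sided p = 0.1, the smallest that 2 against 3 allows). Its part in the gained and lost calls was not tested.

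**Figure D1:**
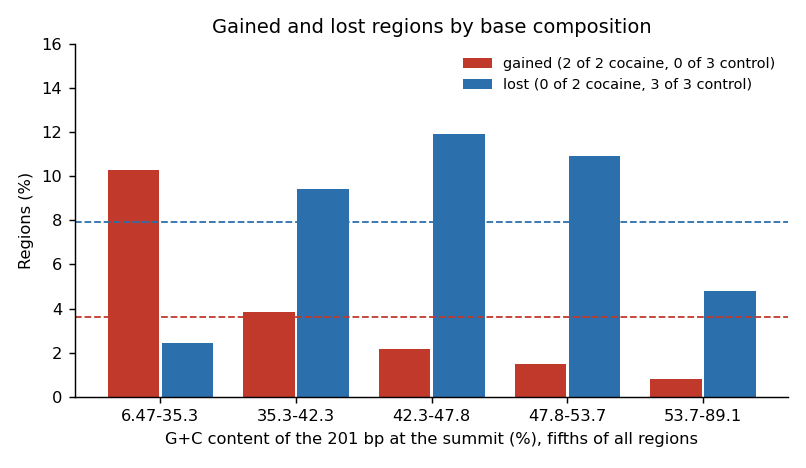
Share of regions that were gained (red) and lost (blue) after cocaine in 5 classes of regions by G+C content within 100 bp of the summit (x axis, %), with the shares over all regions as dashed lines. Gained regions reached 10.3% in the lowest class and 0.811% in the highest, while lost regions peaked at 11.9% in the middle class.

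Few gained regions were strong. The median of the worse rank over the 2 cocaine libraries was 61557 of 74532, no gained region was within the 10000 strongest peaks of both libraries, and 17 were within the 25000 strongest. Of the 10 gained regions of best rank without any control peak, 8 had windows that were more than 50% repeat. The region near Kcnd2, a potassium channel gene, had fold enrichments of 9.51 and 8.6 with cocaine at chr6:21200357-21200888. Of the 10, 3 belonged to a repeat cluster near Gm10721 at the start of chromosome 9, with values of 4.88 to 8.6. The Kcnd2 region was also called in 6 of 6 female control libraries and in 4 of 6 female cocaine libraries. The Ankar region (6.67 and 7.44 with cocaine in males) was called in 6 of 6 of either kind. An intronic region of Pcca at chr14:122568856-122569176, with 5.68 and 6.74 and a window that was 100% repeat, was the only one of the 10 that no female library called.

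Strong promoter gains were also few. The promoter of Magel2, an imprinted gene of the Prader-Willi region, had fold enrichments of 4.37 and 4.65 with cocaine, with weaker peaks of 3.06 and 2.74 in controls 1 and 3 and none in control 2. The promoter of Armc3 had 4.26 and 4.53 with cocaine and 3.06, 3.17 and 3.4 in the controls. That of Zfp944, a zinc finger gene, had 4.48 and 3.49 with no peak in any full control list. Of 20696 protein-coding genes, 48 (0.232%), these 3 among them, had a promoter peak in both cocaine lists and no control list.

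Lost regions were stronger than gained ones. In 434 of them all 3 controls ranked the peak within their 25000 strongest. The first by worst rank, at chr3:79436001-79436822 in an intron of Gm17359, had fold enrichments of 15.93, 14.32 and 15.37 in the controls and no peak in either full cocaine list. A region 27713 bp from the start of Calml3 (chr13:3776230-3776941) had 13.26, 11.15 and 13.28 and was called in no female library. One in an intron of Cdk14 (chr5:4993013-4993773) had 12.11, 11.43 and 11.2, and one in an intron of Car10 (chr11:93565542-93566275) had 11.98, 11.15 and 10.65. In each of these the controls lay close together and the cocaine libraries had no peak to set beside them.

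Promoters were lost at 126 of the 20696 protein-coding genes (0.609%). The first by rank was that of Vamp5, a vesicle membrane protein, with 8.67, 9.36 and 10.43 in the controls. Creb5, which encodes a bZIP factor of the CREB and ATF family, had 8.16, 8.26 and 7.24 at the promoter printed above, which holds an AP-1 site. Neurod6, a bHLH factor of excitatory neurons, had 6.5, 7.44 and 6.59 at a promoter that holds a CRE. None of these 3 had a peak in either full cocaine list. In females the promoter of Neurod6 was called in no library, and that of Creb5 in 6 of 6 cocaine and 3 of 6 control libraries.

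The sorted nuclei were checked against markers of neuron types. All 6 pan-neuronal promoters (Rbfox3, Snap25, Syt1, Map2, Tubb3 and Stmn2) were called in all 5 libraries, and those of the 4 endothelial genes in none. Of 6 microglial promoters 0 or 1 was called in each library, of 6 astrocyte promoters 1, and of 9 promoters of oligodendrocytes and their precursors 2 or 3. Of 8 medium spiny neuron promoters, 8 and 8 were called with cocaine and 7, 8 and 7 in the controls. Of 8 promoters of cortical excitatory neurons, 2 and 2 were called with cocaine and 7, 7 and 7 in the controls, and the groups did not overlap (exact permutation test, two-sided p = 0.1, the smallest possible). Cux2 was called in all 5 libraries. Peaks at Tbr1 (4.08, 4.82 and 4.5 fold in the controls), Neurod6, Neurod2 (5.35, 3.72 and 4.83) and Emx1 (5.1, 3.86 and 3.84) had no counterpart in either full cocaine list. Slc17a7, which encodes the vesicular glutamate transporter VGLUT1, was counted with them because its control peaks of 15.93, 11.43 and 14.71 reached into the promoter window, but their summit lay 1689 bp from the start site, where cocaine libraries had peaks of 10.39 and 7.56. Fezf2 had weak peaks below the list in all 3 controls (2.93, 3.17 and 3.07) and none with cocaine. These genes mark excitatory neurons of the cortex, and in bulk nuclei a smaller share of such cells and less open chromatin per cell cannot be told apart. The part of this difference in the lost regions was not tested.

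**Figure D2:**
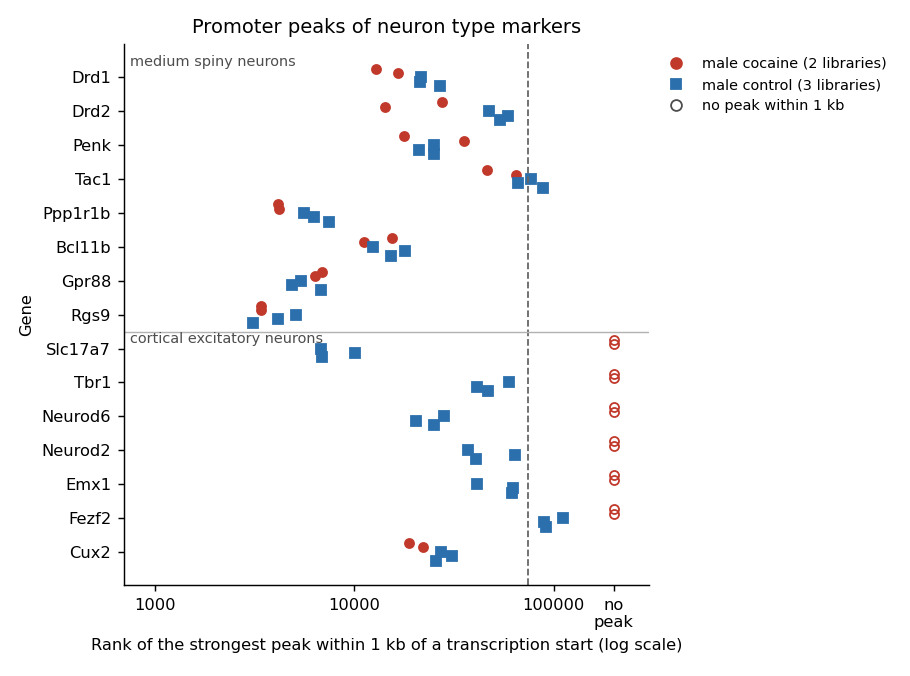
Rank of the strongest peak within 1 kb of a transcription start (x axis, log scale, 1 is the strongest peak of a library) for 8 medium spiny neuron and 7 of the 8 cortical excitatory neuron markers in each male library. Open symbols stand for no peak of the full list within 1 kb, and the dashed line is the end of the equal-length lists at 74532. At Slc17a7 the cocaine libraries had peaks outside this window. Open symbols occur in the cocaine libraries only, at 6 of the 7 cortical genes plotted, and full lists of the controls were longer than those of the cocaine libraries.

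By gene, 1900 of 20780 protein-coding genes (9.14%) had a gained region in the gene or within 10 kb, and 3798 (18.3%) had a lost one. Long genes hold more regions, so counts per region are given beside them. Around all protein-coding genes, 3.16% of regions were gained and 6.95% lost.

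Genes of medium spiny neuron identity had more gained than lost regions, with 17 of the 34 gained ones at Foxp2 alone. Of 397 regions at 17 such genes, 34 (8.56%) were gained and 16 (4.03%) lost, and 11 genes had a gained region and 5 a lost one. Foxp2, a forkhead factor of Drd1 neurons, had the most gained regions of any gene, 17 of 70 with 1 lost. The window of the one of best rank was printed above. These regions were weak, with fold enrichments of 2.56 to 3.72 in the cocaine libraries, and 9 of them had no peak in any full control list. The promoter region of Foxp2 had 5.25 and 3.37 against 7.27, 7.02 and 6.37, which did not pass the limma test of peak height (-0.21 ± 0.19, log2). Bcl11b (CTIP2), a zinc finger factor required for these neurons, had 3 gained regions and 0 lost, and Sp9 and Rarb had 2 and 3 gained with 0 lost. The peptide precursor Pdyn was the only listed gene whose promoter was called in cocaine libraries alone, at 3.17 and 2.91, but controls 1 and 3 had peaks of 3.57 and 3.4 below their list. Foxp1 had 2 gained and 10 lost of 120 regions.

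Of 287 regions at dopamine receptor and signalling genes, 7 (2.44%) were gained and 7 (2.44%) lost. Around all protein-coding genes these shares were 3.16 and 6.95%. Drd1 accounted for 2 of the gains, 7469 and 5131 bp from its start site, both weak (2.95 and 3.02, and 2.73 and 3.02) and both with a weak peak in at least 1 control. Drd2 and Drd3 had 0 gained and 0 lost of 11 and 5 regions. Drd4 had a promoter call in 0 of 2 cocaine and 2 of 3 control libraries, and the promoters of Drd3, Drd5, Th and Slc6a3 were called in none.

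At immediate early genes no region was gained. Of 143 regions at 26 genes, 0 were gained and 6 (4.2%) were lost, at Arc, Bdnf, Dusp4, Fos, Homer1 and Nr4a2. Around all protein-coding genes 3.16% of regions were gained and 6.95% lost. Of the 143 regions, 73 were called in all 5 libraries and could be neither gained nor lost. All 26 promoters were called in all 5 libraries, where 11565 of the 20696 protein-coding promoters (55.9%) were, at median ranks of 3520 and 3303 with cocaine and 3337, 3939 and 3582 in the controls. The lost region of Fos, 5864 bp from its start, had 6.25, 3.58 and 5.71 in the controls, and that of Arc, 5071 bp from its start, 6.5, 4.68 and 5.16.

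The other lists held both kinds of region, where 3.16% of regions around all protein-coding genes were gained and 6.95% lost. GABA genes had 20 gained (5.36%) and 25 lost (6.7%) of 373 regions, with 13 losses in Gabbr2 alone. Glutamate receptors and scaffolds had 46 (5.29%) and 45 (5.17%) of 870, with 14 gains in Dlg2, which encodes the scaffold PSD-93. Gria2, an AMPA receptor subunit, had 5 gained and 0 lost of 49. Voltage-gated channels had 43 gained (3.95%) and 66 lost (6.07%) of 1088, with 12 losses in Kcnma1. Synaptic adhesion genes had 49 (3.51%) and 112 (8.02%) of 1397, with 19 losses in Nrxn3. Peptide, opioid, cannabinoid and serotonin receptors had 7 (5.43%) and 11 (8.53%) of 129, and chromatin regulators 6 (2.4%) and 10 (4%) of 250. Oprm1, the mu-opioid receptor, had 2 gained and 3 lost regions, the lost ones in introns shared with Ipcef1. The loci that the study named for males had 7 gained and 0 lost of 67 regions, but they had been chosen on these libraries and are no independent evidence of a direction.

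**Figure D3:**
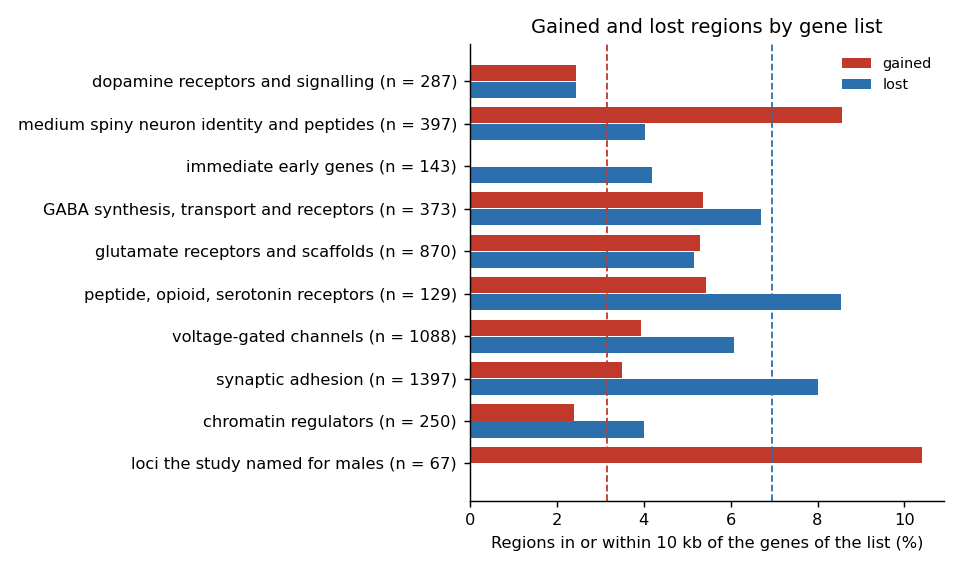
Share of the regions in or within 10 kb of the genes of each list that were gained (red) and lost (blue), with the number of regions and, as dashed lines, the shares around all protein-coding genes (3.16 and 6.95%). Gained regions made up 8.56% at medium spiny neuron identity genes, where Foxp2 held 17 of the 34, and 0% at immediate early genes. The loci named by the study were chosen on these libraries.

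Among all genes, Foxp2 was followed in gains by Dlg2 and Dok6 (14 each), Brinp3 and Macrod2 (13 each). Brinp3 had 13 gained and 0 lost of 53 regions. Tenm2, a teneurin adhesion protein, had 21 lost and 0 gained of 114 regions, Nrxn3 had 19 lost and 5 gained, and Slit3, an axon guidance ligand, had 18 lost and 1 gained of 75. The gene models Gm20388 and Gm37240, which span several other genes, had 23 and 16 losses. These genes were ranked by the calls themselves, so that their counts are a description.

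The height of peaks was compared at the 39452 regions called in all 5 libraries, where the choice of regions did not fix a direction. The log2 fold enrichment was quantile-normalised, which gives all libraries the same distribution, and tested with limma (Benjamini-Hochberg adjusted p of at most 0.05). Fold enrichments are given as deposited, and differences on the normalised log2 scale with their SE. After cocaine 2670 regions (6.77%) were higher and 3280 (8.31%) were lower. With the libraries scaled by their medians instead, 6087 were higher and 2682 lower, so that the balance of the directions depended on the scaling. The calls also rested on having 2 cocaine libraries. Without cocaine 1, 262 were higher and 699 lower, without cocaine 2 they were 299 and 781, and without control 3 they were 861 and 1470. Promoter regions were higher more often than lower, 1010 (9.06%) against 505 (4.53%) of 11150, and intergenic regions the reverse, 635 (5.6%) against 1260 (11.1%) of 11339.

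A pair of intronic regions of Dock2, a Rac activator of blood cells, were among the 3 largest increases. At chr11:34542851-34545144 the fold enrichment was 46.35 and 48.82 with cocaine and 9.94, 12.12 and 9.11 in the controls, a difference of 2.57 ± 0.13 (log2, SE; adjusted p = 3.41e-15). At chr11:34681541-34683487 it was 77.94 and 82.3 against 15.3, 20.52 and 16.68 (2.36 ± 0.12). In both the groups were far apart and the libraries of a group close together. All female libraries lay below both male cocaine libraries. At the first region they were 13.65, 12.08 and 17.11 with cocaine and 20.27, 18.09 and 21.79 without in diestrus, and 12.32, 11.87 and 13.61 against 20.06, 17.4 and 14.6 in proestrus, so that the cocaine libraries were the lower ones without overlap in both stages. At the second region the female range was 19.87 to 34.46 with cocaine and 25.18 to 39.95 without. The difference between the sexes was not tested. Of the other 8 regions with the largest increases, 7 had windows that were more than 50% repeat, among them the promoter region of Litaf (26.02 and 25.22 against 9.31, 9.23 and 10.1).

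The 10 largest decreases had windows with 0 to 48.3% repeat, and at all 10 the male controls stood apart from every other library of the series. Their fold enrichments were 11.15 to 18.04, against 2.44 to 3.95 in the male cocaine libraries, 2.46 to 8.11 in the female cocaine libraries and 2.44 to 5.7 in the female controls, with no peak in 12 of the 120 female values. A region 217115 bp from Mmp16 (chr4:17635352-17636897) had 2.95 and 3.95 with cocaine and 14.4, 18.04 and 15.81 in the controls (-1.8 ± 0.17, adjusted p = 9.92e-09). A region 124264 bp from Sstr1 (chr12:58087049-58088157) had 3.61 and 3.72 against 17.34, 15.01 and 16.58 (-1.72 ± 0.15). Female libraries had 3.03 to 5.97 at the first, with no peak in 1 library, and 3.35 to 6.91 at the second. Intronic regions of Gpc6 (-1.66 ± 0.16) and Tbc1d30 (-1.66 ± 0.17) were of the same size. The 20 regions with the largest changes, 10 each way, kept their calls when any 1 library was left out.

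At promoters, genes of GABA synthesis and transport were among those called higher after cocaine. Of 18 GABA genes with a promoter region called in all 5 libraries, 6 were higher and 0 lower. Of all promoter regions called in all 5 libraries, 9.06% were higher and 4.53% lower. Slc32a1, the vesicular GABA transporter, had fold enrichments of 18.8 and 19.88 with cocaine and 14.79, 13.63 and 12.84 in the controls (0.83 ± 0.12, adjusted p = 2.12e-05), and the groups did not overlap even before normalisation. Gad1 and Gad2, which encode the GABA-synthesising enzymes, were higher by 0.7 ± 0.16 and 0.73 ± 0.16 (adjusted p = 0.00301 and 0.00261). The calls at Gad1 and Gad2 were lost when either cocaine library was left out (range over the fits 0.64 to 0.74 and 0.7 to 0.8). That at Slc32a1 was kept in all 5 such fits (0.73 to 0.91). At Slc32a1 females had 15.5 to 29.08 with cocaine and 16.78 to 25.46 without, which overlapped. Here the male controls stood apart, below every female library, while the male cocaine libraries lay inside the female range.

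Of 14 dopamine genes with such a promoter region, 3 were higher and 0 lower, against 9.06 and 4.53% of all promoter regions. Drd2 had 4.48 and 6.86 against 4.72, 3.99 and 4.17 (0.86 ± 0.19, adjusted p = 0.00245), with cocaine 1 inside the range of the controls before normalisation. Without cocaine 2 the difference at Drd2 was 0.54 and was no longer called. Drd1 had 7.65 and 6.04 against 7.65, 7.16 and 6.26 (0.44 ± 0.17, adjusted p = 0.0782), which did not pass. Ppp1r1b, whose product DARPP-32 relays dopamine signals, had 16.4 and 15.23 against 17.72, 15.15 and 13.94 (0.36 ± 0.12). The G protein subunit Gng7 had 42.63 and 34.87 against 44.87, 33.19 and 34.03 (0.39 ± 0.1). At both the groups overlapped before normalisation, and both calls were lost when either cocaine library or control 3 was left out. Sp9, a factor of Drd2 neuron development, was higher at its promoter (0.81 ± 0.17, adjusted p = 0.00169), and this call was lost without cocaine 1.

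Of the 26 immediate early gene promoters, 0 were higher and 4 lower, against 9.06 and 4.53% of all promoter regions. Bdnf, the neurotrophin whose promoters respond to activity, had 5.9 and 6.28 with cocaine and 17.34, 18.18 and 20.64 in the controls (-1.19 ± 0.14, adjusted p = 4.29e-07). All controls lay above both cocaine libraries, and the call was kept in each fit without 1 library (-1.3 to -1.09). Here too the male controls stood apart, since the females had 3.22 to 7.96 with cocaine and 5.34 to 7.49 without. Jun (-0.3 ± 0.1), Egr2 (-0.35 ± 0.12) and Nr4a3 (-0.34 ± 0.1) were lower by less, and their calls were lost with scaling by the medians and without either cocaine library. Fos had 11.15 and 9.07 against 13.89, 12.53 and 15.04 (-0.08 ± 0.14, adjusted p = 0.73) and Fosb 14.98 and 16.16 against 19.25, 13.77 and 16.14 (0.27 ± 0.13, adjusted p = 0.144). Of the 5 regions of Fosb, 2 were higher.

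The counts of the other lists stand against the same shares of all promoter regions, 9.06% higher and 4.53% lower. Among these lists, 4 of 27 glutamate promoters were higher and 0 lower (Dlg2, Dlg4, Grm5 and Shank2). Of 29 channel promoters, 3 were higher (Kcnc1, Kcnma1 and Scn4b) and 1 was lower. Of 22 chromatin regulators 3 were higher, Crebbp and Kmt2a among them, and 2 lower (Hdac2 and Sirt1), and of 23 adhesion genes Nrxn2 was higher and Cadm2 lower. Htr6 was the 1 of 15 peptide and serotonin receptor promoters that was higher. Of 33 promoters past the test over all lists and markers, 2 (Bdnf and Slc32a1) kept the call whichever library was left out. Over the regions of all listed glutamate genes, 29 of 253 (11.5%) were higher and 13 (5.14%) lower, with a median of 0.124 against 0.013 over all regions, and Dlg2 held 10 of the 29. Over GABA genes 17 of 95 (17.9%) were higher and 10 (10.5%) lower. For both lists the matching shares, over all regions called in all 5 libraries, were 6.77% higher and 8.31% lower.

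**Figure D4:**
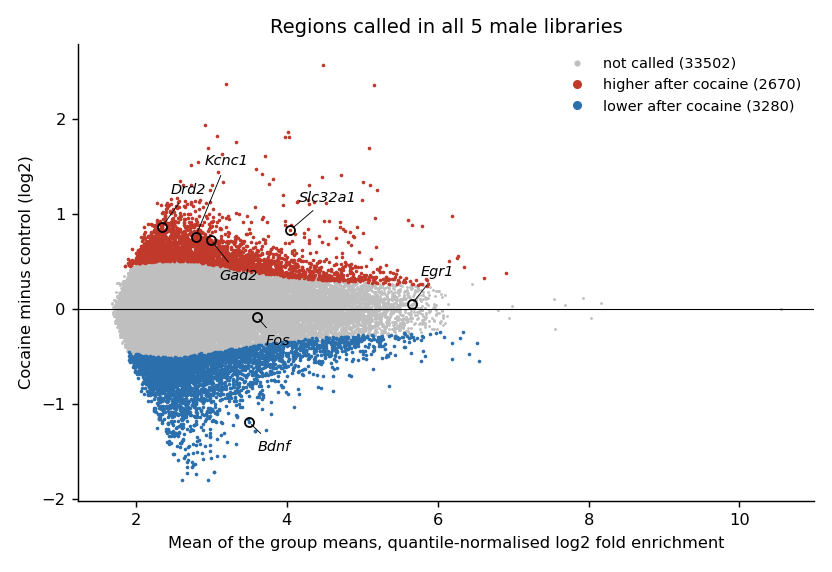
Difference between cocaine and control (y axis, log2) against the mean of the groups (x axis, quantile-normalised log2 fold enrichment) at the 39452 regions called in all 5 male libraries, with 2670 higher (red) and 3280 lower regions (blue, limma, Benjamini-Hochberg adjusted p of at most 0.05). The promoter regions of Slc32a1, Gad2, Drd2 and Kcnc1 lie among the higher and that of Bdnf among the lower, while those of Fos and Egr1 lie near 0.

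For most motifs the share of peaks that held them did not overlap between the groups, in numbers too small to pass a test. Within 100 bp of the summit, the homeobox motif TAATTA was in 7.24 and 8.14% of peaks with cocaine and in 5.13, 6.09 and 5.51% in the controls. The AP-1 motif was in 9.54 and 8.96% against 10.4, 10.3 and 10.3%, and the E-box CAGCTG in 11.7 and 11.1% against 13.8, 12.6 and 13.4%. Of 13 such measures (11 motifs, G+C content and the share of promoters), 11 had groups that did not overlap, each at an exact permutation p of 0.1 or 0.2 and an adjusted p of 0.186 or more. In gained regions the homeobox motif was present in 14.9%, against 4.52% of lost and 7.89% of all regions, and AP-1 in 7.11% against 11.0 and 9.41%. The MEF2 motif was in 9.54% of gained and 6.17% of lost regions, and NR4A (AAAGGTCA) in 0.819 and 0.341%. The GRE was in 0.53% of gained (22 regions), 0.154% of lost and 0.288% of all regions. The homeobox and MEF2 motifs are rich in A and T, as gained regions are, and the part of base composition in these shares was not tested.

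Among motifs, regions with a GRE had the highest share of increases in peak height. Of 124 regions with this motif, 25 (20.2%) were higher after cocaine and 5 (4.03%) lower, with a median of 0.203, against 6.77 and 8.31% of all regions. The one with the largest increase, printed above, lay in an exon of 4930402H24Rik and had 13.88 and 16.39 with cocaine and 10.58, 7.71 and 10.1 in the controls (1.07 ± 0.15). These regions were chosen to be named after their values were seen. Others lay 9320 bp from Trank1 (0.75 ± 0.15), 106 bp from the start of the potassium channel gene Kcna5 (0.59 ± 0.16) and in an intron of Zbtb16 (0.51 ± 0.13), a zinc finger factor. Of 1905 regions with the MEF2 motif, 231 (12.1%) were lower and 83 (4.36%) higher, and of 789 with the EGR motif 94 (11.9%) were higher and 34 (4.31%) lower. Of 4172 regions with AP-1, 301 (7.21%) were higher and 420 (10.1%) lower.

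The 12 female libraries, which played no part in choosing the regions, gave a further look at them. Of the 4151 regions gained in males, cocaine libraries of females in diestrus (low estrogen) called 35.3, 35.5 and 33.1% and their controls 26.9, 31.9 and 34.0%. In proestrus (high estrogen) cocaine libraries called 34.9, 36.8 and 35% and controls 23.9, 23.9 and 26.5%. The groups did not overlap in proestrus and did in diestrus. Over both stages the difference was 7.25 percentage points (exact permutation test within stages, two-sided p = 0.01, adjusted over 6 values p = 0.06), with 5 of 6 cocaine libraries above every control of their stage, which did not pass after adjustment. For the 9083 regions lost in males, the female cocaine libraries called 23.1% ± 5.7 (SD, n = 6) and the female controls 21.3% ± 1.2 (SD, n = 6; difference 1.84 points, exact permutation p = 0.405). Of the lost regions 3820 (42.1%) and of the gained regions 1577 (38%) were called in no female library. The same rule applied within a stage gave 1507 gained and 1202 lost regions in diestrus and 2249 and 1508 in proestrus, in comparisons of 3 libraries with 3, which are stricter than 2 with 3.

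**Figure D5:**
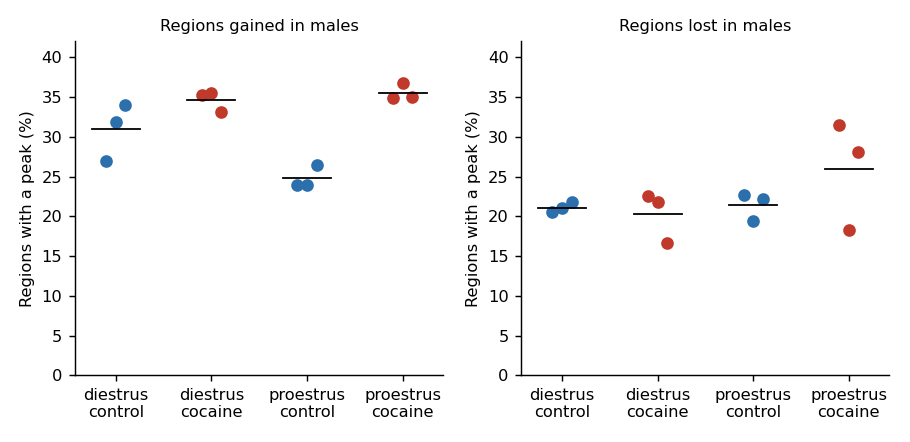
Share of the regions gained (left) and lost (right) in males that had a peak in the equal-length list of each female library (points, 3 libraries per group, with the group mean as a line). For gained regions the proestrus cocaine libraries lie at 34.9 to 36.8% and their controls at 23.9 to 26.5%, while for lost regions the groups overlap in both stages.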

How the data were processed

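ATAC-seq was performed on NeuN-positive nuclei of pooled mice. Per the labels and the study's methods, the authors aligned reads to mm10 with BWA, called peaks in each library with MACS2 and counted reads with featureCounts for DESeq2; no read counts were used here. For every peak the deposited values were MACS2's score, the ratio of summit to background (fold enrichment), −log10 p and −log10 q, which the authors had computed within single libraries. Depth was read from the background, 6.26 to 8.15 reads in the male libraries, recovered from the fold enrichments. A missing peak means not called at this depth.

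The strongest 74532 peaks (the length of the shortest list) on chromosomes 1 to 19 by −log10 p were taken from each library and merged where they overlapped by 1 bp. Genes came from GENCODE vM21, and sequence and repeat masking from RefSeq's GRCm38, the same build as mm10. No blacklist was used. Peak height was tested with limma 3.58.1 (R 4.3.3) on quantile-normalised log2 values that were computed here from the deposited fold enrichment. On simulated data with 200 of 39452 regions changed by 1 (log2), 96.5% were recovered and 10 others called, and by 0.5, 22.5% and 2. In simulated lists 200 of 200 gained and 200 of 200 lost regions were counted.

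Motifs were searched on both strands within 100 bp of the summit as AP-1 (TGACTCA or TGAGTCA), CRE (TGACGTCA), EGR (GCGGGGGCG or GCGTGGGCG), Sp/KLF (GGGCGG), ETS (CCGGAAG), homeobox (TAATTA), an E-box (CAGCTG) and NR4A (AAAGGTCA), and MEF2, CTCF and GRE by their consensus. In this order they were in 9.41, 0.554, 0.804, 10.4, 2.01, 7.89, 11.5, 0.568, 6.5, 2.51 and 0.288% of regions. A match is not a bound site.

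Regions named were the 10 of best worst rank gained or lost (all, and at promoters), the 5 genes with most gained and most lost regions, and the 10 regions highest and lowest by limma. GRE regions, the best-ranked region in Foxp2 and the levels in females at named regions were chosen after values were seen. The members and lists were chosen with earlier results of these data known. Nothing states that libraries of a group were separate beyond their pools, so p-values measure the spread between these libraries. Results at some genes are not reported here.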

Additional observations from a re-analysis of the deposited data

Results flagged for a closer look

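The number of cortical excitatory neuron promoters called set the male controls apart from all other libraries. Of 8 promoters, the male cocaine libraries called 2.0 on average and the male controls 7.0, a difference of -5.0, whereas the female cocaine libraries called 3.17 and the female controls 2.67, a difference of 0.5. The male difference minus the female one was -5.5 (exact permutation of sex within treatment over 2352 assignments, two-sided p = 0.0017). This test was added because of the values it was run on, so that its p restates them and is no evidence of a difference between the sexes in the effect of cocaine, and males alone gave an exact p of 0.1. Without Slc17a7 the value was -5.0. The 12 female libraries called 1 to 5 of the promoters, which includes the counts of the male cocaine libraries and none of those of the male controls.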

How the results depend on the processing

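Gained and lost regions depended on how deep the lists went. With the 50000 strongest peaks there were 2624 gained and 5122 lost, with every peak 2502 and 27174, and with no peak allowed in any full list of the other group 1872 gained. Of the 4151 gained regions, 854 overlapped a gained region of the 50000 strongest peaks. Leaving out 1 library gave 4827 to 15709 gained, the highest values without cocaine 1 (15709) or cocaine 2 (13771), and 9083 lost became 11017 to 12504. Ranking by fold enrichment had to give identical sets, since within a library it and the p-value follow from the same summit reads and background. Summit windows, chromosome X and a longer list stayed within 1.5 times. Leaving out windows of more than 50% repeat, chosen after seeing the data, gave 3918 gained and 8823 lost.

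In limma, scaling by the medians gave 6087 higher, the regions above the median enrichment 1642 higher and 2096 lower of 19726 regions, and the fits without 1 library 262 to 3490 higher and 699 to 3804 lower; with 1 cocaine library left, it is assumed to vary like the controls. A replicate block gave 1513 higher and 2190 lower. Replicate numbers did not pair the libraries, as deviations of same-numbered libraries correlated at 0.004 and -0.001. A loess correction on G+C gave 2756 higher and 3583 lower. No named region or promoter that was called reversed under any of these settings.

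In the female libraries, the difference for gained regions over both stages ranged from 6.24 to 8.03 points without 1 library, and passed after adjustment (p = 0.03, exact permutation) only without diestrus control 3 (8.03). It was 4.92 points with 50000 peaks and 5.23 with every peak. Of 13 measures per library, 9 to 12 had groups without overlap. Listed promoters called in cocaine libraries alone went from 1 to 0 with every peak, and those in controls alone from 6 to 8. The end of the lists limits all calls, since weak peaks near the end of the shorter cocaine lists enter or leave with the setting.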

Other observations

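Chromosome 7 had the smallest share of lost regions. Of its 4471 regions, 168 (3.76%) were gained and 155 (3.47%) lost, whereas lost regions made up 5.88 to 9.45% on the other autosomes. Gained regions were 52.0% of its gained and lost regions together, against 22.4 to 39.3% on the others. The difference was not tested.

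Proestrus cocaine library 2 called 8 of 9 oligodendrocyte and precursor promoters, where the other 16 libraries called 2 to 4. The endothelial gene Flt1 held the 1 region of that marker list called in all 5 male libraries, and it was higher after cocaine by 1.47 (log2), while the promoters of all 4 endothelial markers were called in no library.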
